A study of Mus musculus with 45 samples.

Results

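Expression of 9 genes that move or hold iron, copper and other metals was followed in the adult mouse dentate gyrus (DG). The genes were Slc40a1, Tfrc, Trf, Slc11a2, Slc39a14, Fth1, Slc31a1, Mt1 and Mt2, out of 49922 genes with a unique symbol. They were chosen by function, with measured values of these libraries already known, among them higher levels of Slc40a1, Slc31a1 and Tfrc in untreated NSCs than in untreated IPCs. That difference is therefore given below as a description without a test.

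Neural stem cells (NSCs) and intermediate progenitor cells (IPCs) were sorted from Nestin-GFP mice on a C57Bl6J background, 6 to 9 weeks of age, in which Nestin sequences drive GFP. Live cells without CD31, CD45, O1 or O4 on their surface were taken as NSCs when they carried both GFP and the transporter GLAST, and as IPCs when they carried GFP alone. In one experiment the mice had traumatic brain injury (TBI), a lateral fluid percussion, or sham treatment 4 h before perfusion, and the DG of the injured side was used: TBI NSCs (3 mice), sham NSCs (2 mice), TBI IPCs (3 mice), sham IPCs (3 mice), TBI whole DG (3 mice) and sham whole DG (3 mice). In the other experiment the mice were untreated: NSCs and IPCs of 3 mice, each with 3 technical replicates of 300 cells that were averaged, and whole DG of 3 mice. NSCs and IPCs came from the same animals, except that for sham mouse 5 only IPCs were analysed here, and whole DG came from other mice, for which the labels give the strain and no transgene. Sorted cells and whole DG also differed in library kit and RNA input. The paper states that untreated whole DG came from wild-type mice, and that tissue for sorting was first digested with enzymes and the cells stained with antibodies. Kit, input, mouse line, digestion, sorting and cell type cannot be told apart in any comparison between sorted cells and whole DG.

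Reads in genes per library were 9604877 to 21598519 in the 11 sorted libraries and 9292264 to 13326754 in the 6 whole DG libraries of the injury experiment. They were 9933254 to 18369483 in the 18 sorted libraries and 14492246 to 14837110 in the 3 whole DG libraries of untreated mice. Values are normalized counts, which are reads divided by a size factor of the library. The 2 experiments were normalized apart, so levels are compared within an experiment only. Nes, the gene whose sequences drive the GFP, was at 252 to 311 in untreated NSCs and 66.8 to 156 in untreated IPCs, and it was at 0 in 1 TBI IPC library and 1 sham NSC library. All 10 markers of endothelial cells were found in every group. They summed to 66789 to 83897 in untreated NSCs, 18711 to 45544 in untreated IPCs and 2080 to 3071 in untreated whole DG. Pecam1, which encodes the CD31 that the sort selected against, was at 2809 to 3457 in untreated NSCs, 514 to 1827 in untreated IPCs and 86.0 to 171 in untreated whole DG. Endothelial markers were thus higher by group mean in sorted cells than in whole DG of untreated mice. The 8 neural stem and progenitor markers, all found in every group, summed to 18154 to 26747 in untreated NSCs, 33282 to 39065 in untreated IPCs and 13452 to 14734 in untreated whole DG. Sox11 made up most of the sum in sorted cells, at 12681 to 22042 in NSCs, 27397 to 35200 in IPCs and 907 to 1082 in whole DG. Gfap, alone of the 8, was lower in both sorted groups by its mean. It was at 774 to 1406 in NSCs, 372 to 1203 in IPCs and 11841 to 12883 in whole DG.

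Cells take up iron bound to transferrin, the product of Trf, through the transferrin receptor encoded by Tfrc. Slc11a2 (DMT1) and Slc39a14 (ZIP14) carry iron and other divalent metals across membranes, Fth1 encodes the heavy chain of the iron store ferritin, and Slc40a1 encodes ferroportin, the exporter of iron. Slc31a1 (CTR1) brings copper into cells, and Mt1 and Mt2 encode metallothioneins, small cysteine-rich proteins that bind zinc and copper. In the brain, endothelial cells pass iron and copper inward, oligodendrocytes make most of the transferrin, and astrocytes are rich in metallothionein.

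When iron is scarce, iron-regulatory proteins bind a stem-loop in transcripts, the iron-responsive element. Bound near the start of a transcript it blocks translation, and bound in the tail of Tfrc mRNA it protects the transcript from decay. Its letters were sought as C, then 5 bases of any kind, then CAGTG and 1 base of any kind, then 5 bases able to pair with the first 5, with G to T pairs allowed. The search read transcripts of GENCODE M21 in the sense direction, and 0.81% of 55341 genes held a match. Of the 9 genes 3 did, with 6 sites in all, and they are shown because these are the genes of export, uptake and storage whose levels are compared below. The sites lie in the 5′ UTR of Fth1 (chr19:9982732-9982760, + strand, GRCm38), in the 5′ UTR of Slc40a1 (chr1:45925465-45925493, - strand) and in the 3′ UTR of Tfrc (chr16:32631219-32631247, chr16:32631598-32631626, chr16:32631663-32631691 and chr16:32631710-32631738, + strand). Capitals mark the loop of 6 bases.
Fth1: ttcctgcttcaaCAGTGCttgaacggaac
Slc40a1: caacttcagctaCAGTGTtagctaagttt
Tfrc site 1: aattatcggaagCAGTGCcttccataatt
Tfrc site 2: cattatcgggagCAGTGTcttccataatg
Tfrc site 3: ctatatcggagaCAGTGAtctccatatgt
Tfrc site 4: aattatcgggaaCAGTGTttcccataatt
For the other 6 genes the search says only that these letters were not found.

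Metal enters the control of Mt1 and Mt2 through metal response elements, which the zinc-sensing factor MTF1 binds. Their core was sought as TGCACNC or TGCGCNC on both strands of the 300 bases around each start in RefSeq (GRCm38.p6), 250 before it and 50 after it, and 25.7% of 32851 promoters held 1 or more. Entries were found for 5 of the 9 genes. The window of Mt2 held 4 matches, a number or more that 0.52% of promoters held, and that of Mt1 held 3, which 1.97% of promoters held or passed. One entry of Tfrc held 2, and those of Fth1 and Slc31a1 held none. The 200 bases before the start are shown for the metallothionein pair, which lie next to each other on chromosome 8 (Mt2 chr8:94172418-94172617 and Mt1 chr8:94178889-94179088, both on the + strand), because both genes lay higher in TBI than in sham whole DG, as given below. Other annotated transcripts of Mt1 start further downstream. The stretch shown ends before those starts, and the count reaches only 50 bases past the start used, so matches nearer to them can be missed. Of the 3 matches of Mt1, 1 lay before the start used, against 3 of the 4 of Mt2. Capitals mark the matches on either strand, of which 2 stand in the stretch of Mt2 and 1 in that of Mt1.
Mt2: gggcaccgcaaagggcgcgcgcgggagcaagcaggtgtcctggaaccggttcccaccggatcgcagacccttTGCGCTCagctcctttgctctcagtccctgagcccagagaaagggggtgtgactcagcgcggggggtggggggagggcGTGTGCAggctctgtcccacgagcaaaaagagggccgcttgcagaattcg
Mt1: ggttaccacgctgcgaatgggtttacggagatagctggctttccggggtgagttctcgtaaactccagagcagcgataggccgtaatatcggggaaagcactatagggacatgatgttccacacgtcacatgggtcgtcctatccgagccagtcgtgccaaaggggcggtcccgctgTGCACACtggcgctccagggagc

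In untreated mice the exporter and the copper importer were the members with the clearest rise in sorted cells over whole DG. The iron exporter Slc40a1 (chr1:45908068-45926523, GRCm38) was at 4646, 3887 and 6204 normalized counts in NSCs of mice 1, 2 and 3, at 1126, 1481 and 1117 in IPCs of the same mice, and at 325, 480 and 506 in whole DG. The 3 groups did not overlap, with NSCs highest and whole DG lowest. Slc40a1 was 11.2-fold higher in NSCs than in whole DG (log2 fold change 3.49 ± 0.24, SE, n = 3 each, limma adjusted p = 9.1e-06) and 2.86-fold higher in IPCs than in whole DG (1.52 ± 0.24, limma adjusted p = 0.000903). For Slc40a1, Slc31a1 and Tfrc these tests use the untreated NSC and IPC values known when the genes were chosen. Their p-values in untreated mice are therefore not independent of that choice. A gene was called when its adjusted p over all genes tested was under 0.05 and its log2 fold change reached 1 in size. By that rule 43.1% of the 17638 genes tested differed between NSCs and whole DG, and 42.5% between IPCs and whole DG, so a call in these comparisons was common. Of the 9 members, 3 were called higher and 4 lower in NSCs, and 1 was called higher and 3 lower in IPCs. Without mouse 1, and likewise without mouse 6, 4 members were called in NSCs. The median log2 fold change of the members was 0.16 in NSCs and -1.14 in IPCs, beside -0.64 and -0.68 over all genes tested. For Slc40a1 in IPCs the log2 fold change was 0.95, and not called, without the second technical replicate of mouse 2, whereas it was 1.38, and called, without all of mouse 2. Nor was it called from technical replicate 1 alone (1.19). In bulk RNA, fewer cells of a type and less RNA per cell cannot be told apart.

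The copper importer Slc31a1 (chr4:62360727-62391769) was at 3444, 3189 and 3060 in NSCs, 1635, 1358 and 1526 in IPCs, and 745, 801 and 746 in whole DG. Its groups were as clearly apart as those of Slc40a1, over a smaller range. It was 4.22-fold higher in NSCs than in whole DG (log2 fold change 2.08 ± 0.12, limma adjusted p = 4.23e-06). In IPCs it was 1.97-fold higher than in whole DG, just short of the fold required (0.97 ± 0.12, limma adjusted p = 0.000245), and edgeR (1.46) and DESeq2 (1.32) called it. Part of Slc31a1 is overlapped by Cdc26 on the other strand, and the reads were counted without strand, so their reads cannot be told apart there. The endothelial sums given above stood in the same order as both genes, NSCs over IPCs over whole DG. The 8 pericyte and smooth muscle markers, all found, summed to 26367 to 41252 in NSCs, 26443 to 30641 in IPCs and 867 to 1295 in whole DG, and the 8 microglia and macrophage markers to 2618 to 7019 in NSCs, 177 to 1212 in IPCs and 7372 to 7934 in whole DG. NSC mouse 1 held 33555 normalized counts over the 5 red blood cell markers, against 16.9 and 49.7 in the other NSC mice. The part of these markers in the result was not tested.

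Iron uptake genes were at or below the level of whole DG. Tfrc (chr16:32608920-32632794) was at 1169, 1411 and 1612 in NSCs, 492, 765 and 475 in IPCs and 1159, 1622 and 1014 in whole DG. NSCs and whole DG overlapped (log2 fold change 0.16 ± 0.25, limma adjusted p = 0.62), while IPCs lay below whole DG in every mouse (-1.14 ± 0.25, limma adjusted p = 0.00584), a call that was lost in edgeR (-0.71), in DESeq2 (-0.85) and without whole DG mouse 5 (-0.94). Trf (chr9:103204001-103230444) was at 791.5, 765.6 and 1524 in NSCs, 869, 1580 and 315 in IPCs and 3543, 4114 and 3722 in whole DG. Trf was thus lower in both sorted populations, by -1.96 ± 0.52 in NSCs (limma adjusted p = 0.0134) and -2.32 ± 0.52 in IPCs (limma adjusted p = 0.00635). Oligodendrocyte markers, 8 of 8 found, summed to 3032 to 3300 in NSCs, 3199 to 3262 in IPCs and 57374 to 69281 in whole DG, and their part in the level of Trf was not tested. The gene model Gm20425 runs through Trf on the same strand and shares its reads.

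The divalent metal transporters were low in sorted cells. Slc11a2 (chr15:100387898-100425072) was at 162, 229 and 358 in NSCs, 239, 122.6 and 923 in IPCs and 1047, 998 and 823 in whole DG. It was lower in NSCs (log2 fold change -2.0 ± 0.65, limma adjusted p = 0.0305), a call lost in edgeR and without mouse 1, 4, 5 or 6, and IPC mouse 3 overlapped whole DG (-1.66 ± 0.65, limma adjusted p = 0.062). Slc39a14 (chr14:70303469-70351425) was at 7.44, 45.7 and 21.2 in NSCs, 250, 42.4 and 0 in IPCs and 643, 452 and 560 in whole DG. No sorted sample reached the whole DG range. The difference was -4.73 ± 1.72 in NSCs (limma adjusted p = 0.0473) and -4.63 ± 1.72 in IPCs (limma adjusted p = 0.052), fold changes on the log2(normalized count + 1) scale that rest on few reads. The call in NSCs was lost in edgeR and without mouse 1, 2, 4, 5 or 6, and leaving out IPC mouse 1 gave one in IPCs (-6.38). CLEAR, the study's filter for transcripts too unevenly covered at low input, kept Slc39a14 in 3 of 18 sorted libraries and Slc11a2 in 15, against 17 for Trf and 18 for each of the other 6 genes.

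The storage gene Fth1 (chr19:9980598-9985098) was at 17766, 16452 and 20093 in NSCs, 10344, 13254 and 11862 in IPCs and 35866, 35557 and 40001 in whole DG. Per kilobase of exon it was the highest of the 9 genes in all 3 groups, at means of 5219, 3407 and 10707 normalized counts per kb in NSCs, IPCs and whole DG. Exon lengths were taken over all annotated transcripts, and that of Mt1 spans its whole gene, so the rank per kilobase depends on them. It was lower in NSCs (log2 fold change -1.04 ± 0.11, limma adjusted p = 9.36e-05) and in IPCs (-1.66 ± 0.11, limma adjusted p = 9.97e-06). These falls depend on the scale: with every library brought to 1 total, the median of all genes moved up by 0.70 in NSCs over whole DG and 0.69 in IPCs over whole DG, and Fth1 stood at -0.34 in NSCs and -0.96 in IPCs. In NSCs edgeR (-0.57) and DESeq2 (-0.71) did not call it either. On that scale Slc40a1, Slc31a1 and Mt2 were called higher in both populations, Mt1 was called higher in NSCs, and Trf was the only member called lower, in IPCs. Tfrc on that scale was at 0.86 in NSCs and -0.44 in IPCs, neither called.

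The metallothioneins lay closer to the tissue level. Mt1 (chr8:94179082-94180327) was at 2738, 3524 and 4565 in NSCs, 2091, 3358 and 3120 in IPCs and 2492, 2519 and 2487 in whole DG, and it was called in neither comparison (0.50 ± 0.22, limma adjusted p = 0.0903, in NSCs; 0.16 ± 0.22, limma adjusted p = 0.56, in IPCs). Mt2 (chr8:94172664-94173568) was at 734, 1031 and 1248 in NSCs, 488, 611 and 712 in IPCs and 330, 364 and 376 in whole DG. Its 3 groups did not overlap, and it was 2.75-fold higher in NSCs than in whole DG (1.46 ± 0.24, limma adjusted p = 0.00106) and 1.67-fold in IPCs (0.74 ± 0.24, limma adjusted p = 0.0295, under the fold required, though edgeR gave 1.19 and DESeq2 1.06). The antisense model Gm45774 covers most of Mt2 and received 95.6% to 100% as many reads, so that sense and antisense reads of Mt2 cannot be told apart.

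**Figure D1:**
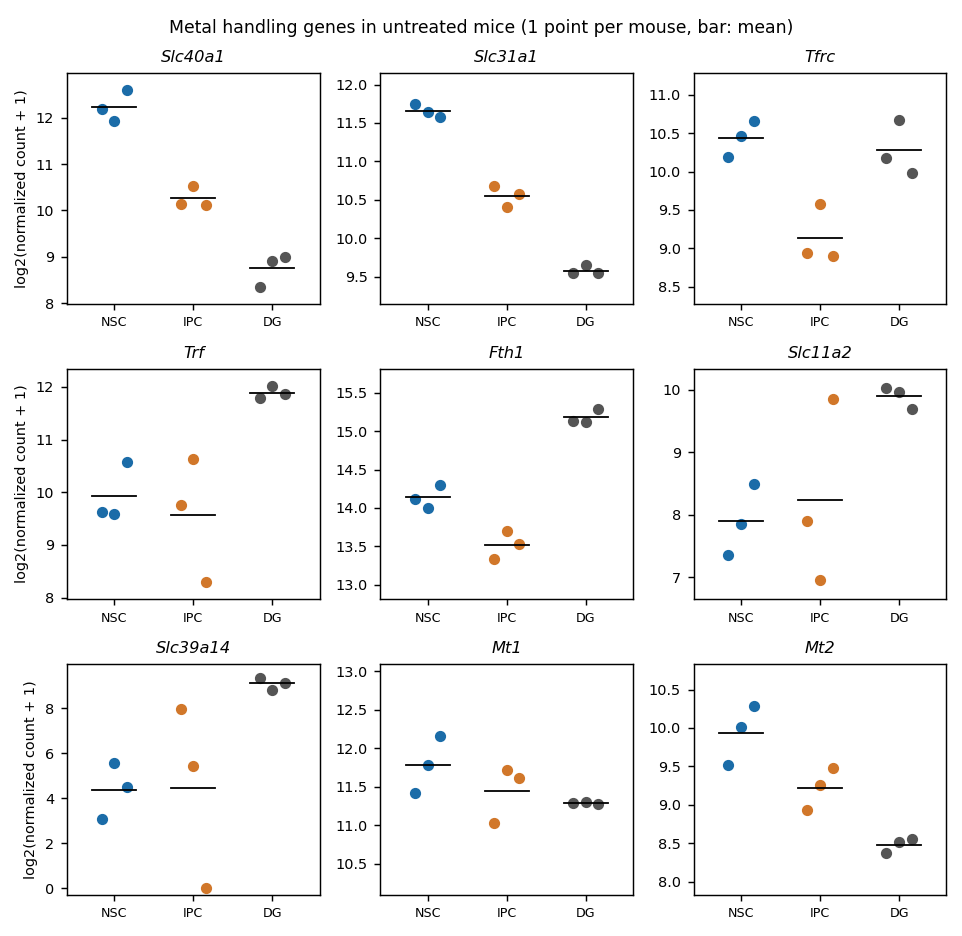
Levels of the 9 genes in untreated mice as log2(normalized count + 1), with 1 point per mouse, 3 mice per group, and a bar at the mean. The y axes differ between panels and do not start at 0. For Slc40a1, NSCs lie between 3887 and 6204 normalized counts, above all IPC and whole DG samples.

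Between the sorted populations of untreated mice, as a description, Slc40a1 was 3.92-fold (log2 1.97 ± 0.24, SE), Tfrc 2.46-fold (1.30 ± 0.25) and Slc31a1 2.15-fold (1.103 ± 0.12) higher in NSCs than in IPCs, and in each of the 3 mice. These were 3 of 9 members, beside 1.63% of all genes that passed the rule. This contrast was among the values known when the genes were picked, so nothing is read from the count. Fth1 (0.62 ± 0.11) and Mt2 (0.72 ± 0.24) also lay above IPCs in every mouse, by less than the fold required. With the mouse as a block 0 genes passed, members included, and with the first technical replicate alone 0 members did. Technical replicates of 1 mouse varied: the coefficient of variation for Slc40a1 was 21.3% to 31.0% in NSCs and 19.1% to 120% in IPCs. The second IPC replicate of mouse 2, with 6110 genes past CLEAR the fewest of the 18 sorted libraries, had 3534 normalized counts of Slc40a1, against 412 and 497 in the other replicates of that mouse.

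In the injury experiment, other mice gave NSCs, IPCs and whole DG, and the rise of Slc40a1 and Slc31a1 in sorted cells over whole DG was found again. Averaged over TBI and sham, Slc40a1 was 20.5-fold higher in NSCs (log2 fold change 4.36 ± 0.48, limma adjusted p = 2.86e-06) and 17.4-fold higher in IPCs (4.12 ± 0.45, limma adjusted p = 2.37e-06) than in whole DG. Slc31a1 was 6.21-fold higher in NSCs (2.63 ± 0.32, limma adjusted p = 7.43e-06) and 7.81-fold higher in IPCs (2.97 ± 0.30, limma adjusted p = 1.12e-06). The genes tested passed at 51.9% for NSCs and 55.6% for IPCs over whole DG, of 18049 tested, and in each comparison 3 members were called higher and 1 lower. The median log2 fold change of the members was 0.67 in NSCs and 0.05 in IPCs, beside -0.45 and -0.64 over all genes tested. Endothelial markers summed to 17680 to 63541 in the sorted libraries and 2153 to 5111 in whole DG. Cdh5 among them went the other way in NSCs, at group means of 16.8 (TBI) and 61.8 (sham), against 150 and 130 in whole DG. It was at 122 and 198 in TBI and sham IPCs, and the other listed endothelial markers were higher in sorted cells by group mean. The part of the endothelial markers in these differences was not tested.

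Mt1 was the third gene higher in sorted cells of the injury experiment. It was at 16566, 28619 and 38552 in TBI NSCs and 13798 and 16498 in sham NSCs, at 14805, 29828 and 30888 in TBI IPCs and 20497, 21217 and 11103 in sham IPCs, but at 4498, 4848 and 4584 in TBI whole DG and 3256, 2460 and 3979 in sham whole DG. No sorted library overlapped whole DG. The rise over whole DG was 5.20-fold in NSCs (2.38 ± 0.26, limma adjusted p = 2.33e-06) and 5.24-fold in IPCs (2.39 ± 0.24, limma adjusted p = 1.06e-06), where in untreated mice the same differences were 0.50 and 0.16. The difference between the experiments was not tested, since they were normalized apart. Astrocyte markers, 7 of 7 found, summed to 122235 to 299573 in the sorted libraries and 47635 to 56427 in whole DG here, and to 20120 to 46652 in sorted cells and 59159 to 72049 in whole DG of untreated mice, and their part in the level of Mt1 was not tested. Most of the sum in sorted cells here was Aldoc, at group means of 128455 to 186349 against 12034 and 12906 in whole DG. Slc1a2 went the other way, at 19514.5 to 24976 in sorted cells and 31270 and 34088 in whole DG. Group means of S100b overlapped, and the other listed markers were higher in sorted cells.

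Mt2 did not follow Mt1 over whole DG. It was 1.66-fold higher in NSCs than in whole DG (0.73 ± 0.30, limma adjusted p = 0.0463) and 1.52-fold in IPCs (0.60 ± 0.28, limma adjusted p = 0.0746), neither past the fold required, and rescaling to 1 total brought NSCs to 1.01, past it. Per kilobase of exon, the level of Mt2 was 1.65 to 2.21 times that of Mt1 in TBI whole DG and 1.5 to 1.92 times in sham whole DG. In sorted cells of both experiments it was 0.39 to 0.65 times that of Mt1, and in untreated whole DG 0.28 to 0.32 times. The size of these ratios depends on the exon lengths used. That of Mt1, 1246 bases, spans the whole gene, against 588 bases for Mt2. Without division by length, Mt2 was at 77.7% to 104% of Mt1 in TBI whole DG and 70.6% to 90.5% in sham whole DG. It was at 13.2% to 15.1% in untreated whole DG and 18.2% to 30.5% in sorted cells. By either measure the ratio was highest in whole DG of the injury experiment.

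Slc39a14 was the only member called lower than whole DG in the injury experiment. It was 5.32-fold lower in NSCs (-2.41 ± 0.49, limma adjusted p = 0.000785) and 5.22-fold lower in IPCs (-2.38 ± 0.47, limma adjusted p = 0.000481) than in whole DG, with CLEAR values in 9 of 11 sorted libraries. NSCs and whole DG overlapped, with TBI NSC mouse 3 at 688 and sham whole DG mice 11 and 12 at 678 and 668, whereas no IPC library reached the whole DG range. Tfrc was 1.86-fold lower in NSCs (-0.90 ± 0.18, limma adjusted p = 0.000693) and 1.95-fold lower in IPCs (-0.96 ± 0.17, limma adjusted p = 0.000217), both just under the fold required, which NSCs passed without mouse 6 (-1.07) and IPCs without mouse 2, 3 or 4. Fth1, lower in sorted cells of untreated mice, was not called here (0.20 ± 0.11 in NSCs, limma adjusted p = 0.12, and 0.05 ± 0.10 in IPCs, limma adjusted p = 0.66). Trf stood at 0.67 ± 0.31 in NSCs (limma adjusted p = 0.0804) and -0.68 ± 0.29 in IPCs (limma adjusted p = 0.0563), and Slc11a2 at -0.31 ± 0.64 and -1.06 ± 0.61 (limma adjusted p = 0.7 and 0.14), none called with all mice.

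**Figure D2:**
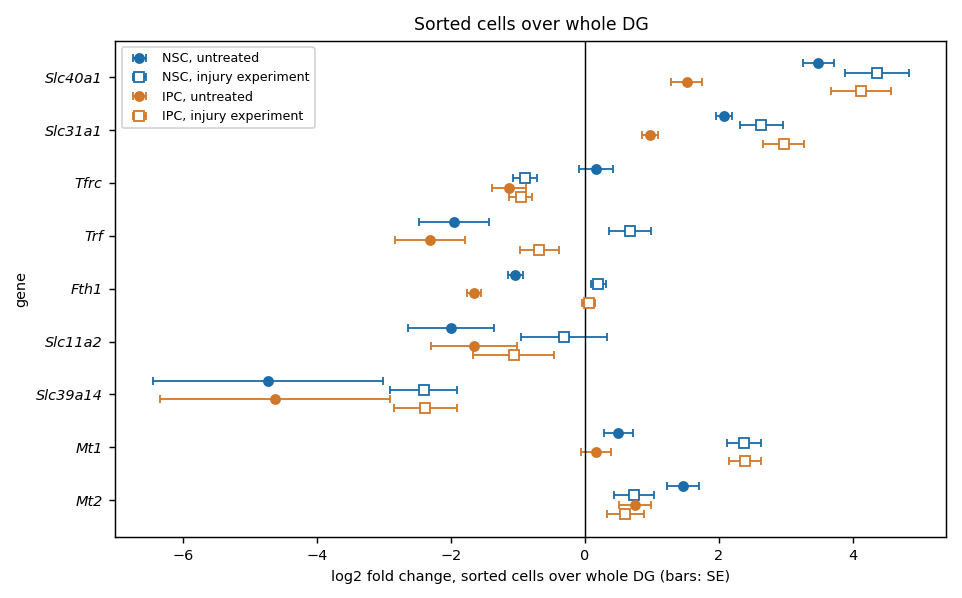
Log2 fold change of sorted cells over whole DG for the 9 genes, with bars of 1 SE. Filled circles are untreated mice (n = 3 per group) and open squares the injury experiment (5 NSC, 6 IPC and 6 whole DG libraries). Slc40a1 and Slc31a1 lie right of 0 in all 4 comparisons, and Slc39a14 lies left of 0 in all 4.

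Differences of NSCs over IPCs in the injury experiment, beside those in untreated mice, were 0.24 ± 0.53 and 1.97 ± 0.24 for Slc40a1, -0.33 ± 0.34 and 1.103 ± 0.12 for Slc31a1, and 0.06 ± 0.23 and 1.30 ± 0.25 for Tfrc (log2 fold change ± SE). None of the 3 passed in the injury experiment (limma adjusted p = 0.96, 0.91 and 0.98), nor did any of the 17230 genes tested (0%), with 973 at an unadjusted p under 0.05, 0 by edgeR and 161 by DESeq2. Within mice, NSCs were above IPCs in 3 of 5 for Slc40a1, in 0 of 5 for Slc31a1 and in 2 of 5 for Tfrc. For Slc31a1 the NSC and IPC values were 3252 and 3590, 1914 and 2240, and 1461 and 2212 in the 3 TBI mice, and 1085 and 1496, and 3207 and 3265 in the 2 sham mice. Every one of these mice had slightly less in NSCs. Trf was the member with the widest gap, 2.55-fold higher in NSCs (1.35 ± 0.36, limma adjusted p = 0.71) and in 4 of 5 mice, and DESeq2 alone called it. Endothelial sums were 21471 to 39143 in TBI NSCs, 23437 to 63541 in sham NSCs, 21356 to 37919 in TBI IPCs and 17680 to 37375 in sham IPCs. Within mice the sums were 63541 in NSCs and 32624 in IPCs of sham mouse 6 and 23437 in NSCs and 17680 in IPCs of sham mouse 4, and in the 3 TBI mice they were 39143 and 37919, 36082 and 36965, and 21471 and 21356 in NSCs and IPCs. In both sham mice NSCs thus had the higher sum, and in the TBI mice the sums lay close together. Their part in the levels of Slc40a1 was not tested.

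**Figure D3:**
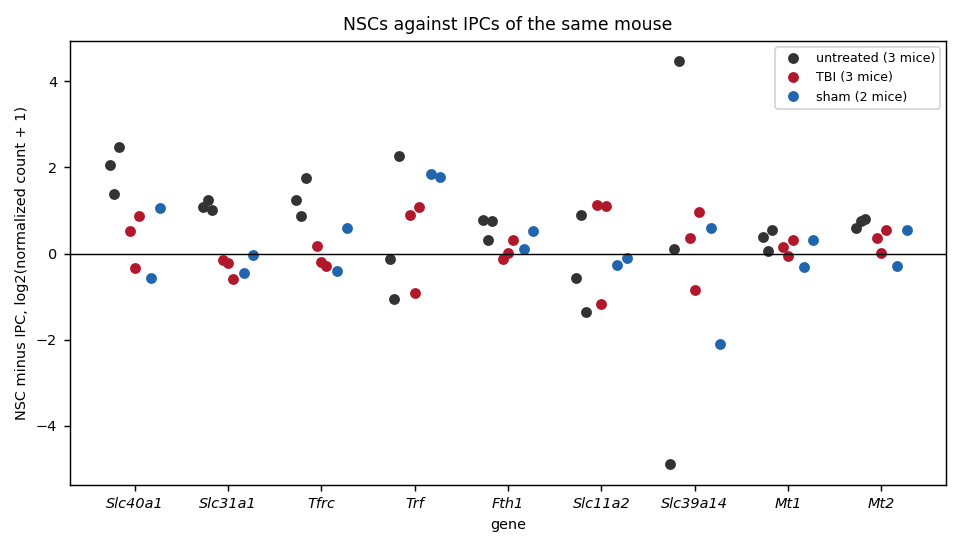
NSC minus IPC of the same mouse on the log2(normalized count + 1) scale, with 1 point per mouse (3 untreated, 3 TBI and 2 sham). For Slc31a1 the untreated mice lie between 1.00 and 1.23 and all TBI and sham mice between -0.60 and -0.03.

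Injury was compared with sham treatment in each kind of sample. In sorted cells depth went with treatment. Reads in genes were 15367572 to 17784627 in TBI NSCs and 11925924 to 13081689 in sham NSCs. They were 16351321 to 21598519 in TBI IPCs and 9604877 to 12804286 in sham IPCs. The codes that end the names of the sorted libraries also differed between TBI and sham. Treatment cannot be told apart from these in NSCs or IPCs. In whole DG 5 members had TBI and sham samples that did not overlap, where 22.9% of the 17434 genes tested did not. Tfrc was at 1941, 2168 and 2242 in TBI, against 1419, 1570 and 1280 in sham, 1.49-fold higher (0.57 ± 0.12, limma adjusted p = 0.13). Slc39a14, the ZIP14 transporter, was at 1146, 1233 and 1302 in TBI, against 941, 678 and 668 in sham, 1.63-fold higher (0.70 ± 0.15, limma adjusted p = 0.13). Both uptake genes were thus higher in every TBI sample than in any sham sample.

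The metallothioneins lay the same way. Mt1, at the values given above, was 1.46-fold higher in TBI than in sham whole DG (0.55 ± 0.16, limma adjusted p = 0.15), and Mt2 was at 3496, 4386 and 4787 in TBI, against 2946, 1737 and 3043 in sham, 1.68-fold higher (0.75 ± 0.21, limma adjusted p = 0.14). The exporter Slc40a1 had lower values in TBI, at 57.4, 80.7 and 51.2 in TBI, against 144, 86.9 and 120 in sham (-0.88 ± 0.26, limma adjusted p = 0.15). Slc31a1, Trf, Fth1 and Slc11a2 overlapped between TBI and sham, with log2 fold changes of 0.02 to 0.24.

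None of these differences passed the rule, and 0% of the genes did: limma and edgeR called 0 genes, 3468 of 17434 had an unadjusted p under 0.05 in limma, and DESeq2 called 206, no member among them. Without sham mouse 10 limma called 533 genes, again no member. The median log2 fold change of the 9 members was 0.24, beside -0.04 over all genes tested. Oligodendrocyte markers summed to 19118 to 24525 in TBI and 32803 to 37131 in sham whole DG, and endothelial markers to 2641 to 3157 in TBI and 2153 to 5111 in sham, and neither sum's part in these values was tested.

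In TBI over sham NSCs no member passed the rule, with 0% of 17230 genes called by limma or edgeR, 664 at an unadjusted p under 0.05 in limma and 106 called by DESeq2. Values of 4 members did not overlap between the 3 TBI and 2 sham libraries, where 19.1% of all genes did not. Transferrin showed the widest gap, with Trf at 1450, 640 and 1463 in TBI NSCs, against 2986 and 3702 in sham NSCs (-1.59 ± 0.54, limma adjusted p = 1). Tfrc was at 646, 793 and 826, against 899 and 1467 (-0.61 ± 0.34), Mt1 was higher by 0.80 ± 0.42, and Slc39a14 was at 157, 259 and 688, against 152 and 73.9 (1.51 ± 0.90), each with limma adjusted p = 1.

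The sham NSC libraries stood far apart from each other. Slc40a1 was at 1988, 1882 and 1565 in TBI NSCs, against 567 in sham mouse 4 and 5027 in sham mouse 6. The TBI values fell between the sham values, so its log2 fold change of 0.09 ± 0.79 turned to -1.48 without mouse 4 and 1.67 without mouse 6. Mouse 6 also held 38476 normalized counts over the 5 red blood cell markers, against 17.6 in mouse 4 and 29.9 to 144 in TBI NSCs. Choroid plexus markers, 5 of 5 found, summed to 1694 in NSCs of mouse 4, of which Ttr held 1407. They summed to 1.87 in mouse 6 and 0 to 324 in TBI NSCs. Group means of Folr1, Kcnj13 and Clic6 were lower in sham than in TBI NSCs. The part of the choroid plexus markers in the level of Trf was not tested.

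In IPCs likewise 0% of 17230 genes passed by limma or edgeR, with 1072 at an unadjusted p under 0.05 in limma and 169 called by DESeq2. One member had groups that did not overlap, where 9.66% of all genes did not: Fth1 was at 24378, 28307 and 25903 in TBI IPCs, against 18920, 22012 and 17444 in sham IPCs (0.43 ± 0.16, limma adjusted p = 0.78). Mt1 was higher by 0.50 ± 0.38 and Mt2 by 0.42 ± 0.42 in TBI, with overlap between the groups (limma adjusted p = 0.88 and 0.91). Slc40a1 was at 1380, 2381 and 854 in TBI IPCs, against 837, 1861 and 2417 in sham IPCs, without a shift (-0.14 ± 0.71, limma adjusted p = 1).

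The response to TBI in NSCs over that in IPCs was tested as an interaction, and 0% of 17230 genes passed by limma or edgeR, with 565 at an unadjusted p under 0.05 in limma and 130 called by DESeq2. Trf had the largest difference of the members (-1.99 ± 0.73, limma adjusted p = 1), followed by Slc11a2 (-0.80 ± 1.5). For the other 7 genes it lay between -0.35 and 0.36. With 2 sham NSC mice the standard errors for Slc40a1 and Slc39a14 were 1.06 and 1.21, so that differences of this size were not detectable for them.

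**Figure D4:**
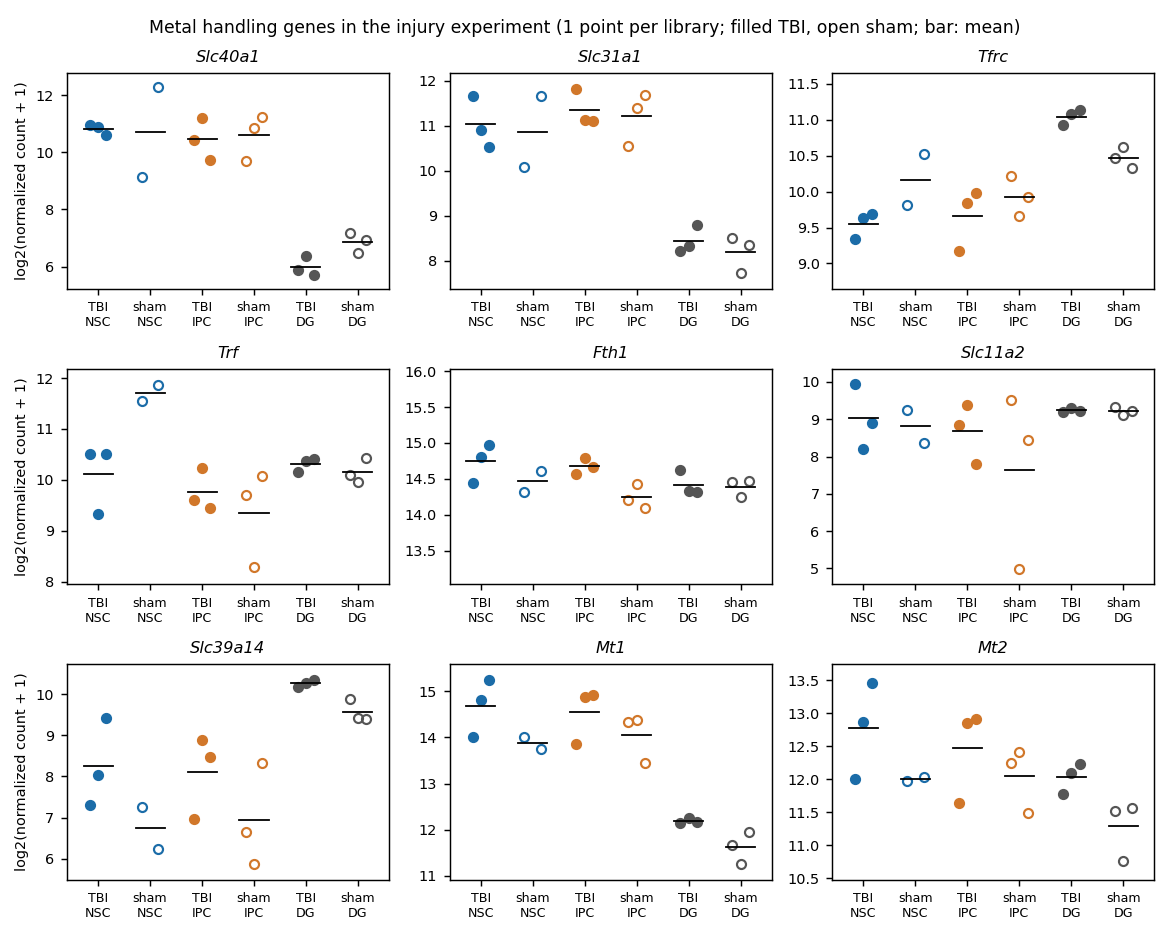
Levels of the 9 genes in the injury experiment as log2(normalized count + 1), with 1 point per library and a bar at the mean (filled, TBI; open, sham). The y axes differ between panels and do not start at 0. In whole DG, Tfrc, Slc39a14, Mt1 and Mt2 lie higher in all 3 TBI samples than in the 3 sham samples, and Slc40a1 lies lower.

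**Figure D5:**
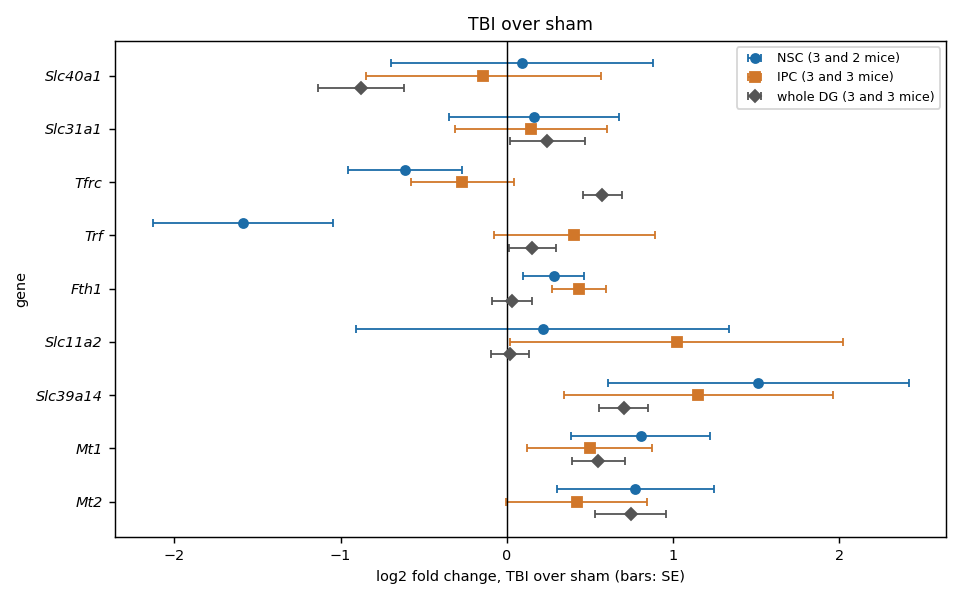
Log2 fold change of TBI over sham for the 9 genes in NSCs (3 and 2 mice), IPCs (3 and 3) and whole DG (3 and 3), with bars of 1 SE. Bars are shortest for whole DG, where Slc40a1 lies at -0.88 and Mt2 at 0.75.

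The other genes of metal handling were taken from 6 lists with 80 genes. In untreated mice 66 of them could be tested, and 11 were higher and 22 lower in NSCs than in whole DG, and 8 higher and 21 lower in IPCs, beside the 43.1% and 42.5% of all genes given above. Highest among those that rose was Ftl1, the light chain of ferritin, at 32061 to 33472 in NSCs, 31353 to 34008 in IPCs and 8869 to 9233 in whole DG (1.85 ± 0.06 in NSCs, limma adjusted p = 5.11e-07, and 1.84 ± 0.06 in IPCs, limma adjusted p = 7.25e-07). The ferritin chains thus differed, since Fth1 was lower in the same libraries. Atox1, the copper chaperone that hands copper to export pumps, was 2.81 ± 0.16 higher in NSCs (limma adjusted p = 3.79e-06) and 1.65 ± 0.16 higher in IPCs (limma adjusted p = 6.22e-05). Ccs, the copper chaperone of superoxide dismutase, rose in NSCs (1.21 ± 0.35, limma adjusted p = 0.0185), and Cp, the ferroxidase ceruloplasmin, in IPCs (3.2 ± 0.27, limma adjusted p = 2.87e-05).

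Those that fell included Slc48a1, a heme transporter, in NSCs (-2.09 ± 0.20, limma adjusted p = 4.64e-05) and in IPCs (-1.77 ± 0.20, limma adjusted p = 0.000137), and the zinc importer Slc39a6 in NSCs (-3.42 ± 0.28, limma adjusted p = 2.1e-05) and in IPCs (-1.58 ± 0.28, limma adjusted p = 0.0017). Fbxl5, an iron-sensing subunit of a ubiquitin ligase, was lower in NSCs (-1.02 ± 0.25, limma adjusted p = 0.00974), and Slc39a10, another zinc importer, in IPCs (-1.08 ± 0.15, limma adjusted p = 0.000416). Between NSCs and IPCs of untreated mice 2 of the 66 (3.03%) passed, beside 1.63% of all genes, and with the mouse as a block neither did: Atox1 was higher (2480 to 3314 in NSCs and 1179 to 1523 in IPCs) and Slc39a6 lower (328 to 414 in NSCs and 855 to 2012 in IPCs).

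In the injury experiment 69 of the 80 genes were tested against whole DG, and 17 were higher and 17 lower in NSCs, and 16 higher and 23 lower in IPCs. These are 49.3% and 56.5% of the listed genes tested, near the 51.9% and 55.6% of all genes. Ftl1 was again higher, by 3.0 ± 0.10 in NSCs (limma adjusted p = 1.08e-10) and 3.14 ± 0.09 in IPCs (limma adjusted p = 4.75e-11). Slc39a12, a zinc transporter of astrocytes, was 2.83 ± 0.36 higher in NSCs (limma adjusted p = 1.34e-05) and 2.78 ± 0.34 in IPCs (limma adjusted p = 7.88e-06). Alas1, which starts heme synthesis, was 1.62 ± 0.24 higher in NSCs (limma adjusted p = 5.06e-05) and 1.28 ± 0.23 in IPCs (limma adjusted p = 0.000207). Pcbp2 and Pcbp1, which carry iron to ferritin, were lower in both, at -1.84 ± 0.12 and -1.34 ± 0.13 in NSCs and -1.66 ± 0.12 and -1.47 ± 0.12 in IPCs, as was the zinc transporter Slc30a9 (-1.80 ± 0.19 and -1.20 ± 0.18). Between NSCs and IPCs, and between TBI and sham in each kind of sample, 0 of the listed genes passed.

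The genes most like each member over both experiments were sought by the smaller of 2 Pearson correlations, over the 9 untreated values and over the 17 libraries of the injury experiment, across 11453 genes whose mean reached 100. These are descriptions: the points share libraries, kits and mice. Slc40a1 and Slc31a1 shared 2 of their 3 nearest genes, Bsg (0.97 for Slc40a1 and 0.96 for Slc31a1) and Anxa3 (0.96 for both). The other one was Egfl7 for Slc40a1 (0.97) and Ets1 for Slc31a1 (0.95). Their own correlation was 0.97 in untreated mice and 0.95 in the injury experiment. Nearest to Tfrc were Sptbn1, Abhd2 and Ube2d3 (0.78 to 0.79), to Fth1 Gm20458, Ndufa10 and Idh3a (0.73 to 0.78), to Slc11a2 Apaf1, Mdga2 and Chpf (0.80 to 0.82), and to Slc39a14 Kcnc1, Fbxw7 and Nr2c2 (0.85 to 0.86). Nearest to Mt1 were Atp5j, Gstm2-ps1 and Pon2 (0.92 to 0.93). The overlapping models came first for Trf (Gm20425, 0.95, then AK157302 and Actn4 at 0.71 and 0.70) and for Mt2 (Gm45774, 1.00, then Tnfrsf12a and Plaur at 0.81 and 0.80).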

How the data were processed

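RNA-seq values were used for sorted NSCs and IPCs and for whole DG, 45 labelled samples that are runs of 38 libraries. The authors aligned reads with HISAT2 2.0.6, counted them per gene with featureCounts without strand, and divided them by a DESeq2 size factor. The deposited signal values are these normalized counts, and repeat runs of a library share a column. CLEAR filtered values equal them. A single column (1) matched no labelled sample and was not used. Of 50600 rows, 678 with one of 310 repeated symbols were left out. In every library 100% of values were whole multiples of 1 step within 0.05, so reads could be recovered.

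Technical replicates were averaged per mouse, and the mouse was the replicate. limma 3.58.1 (R 4.3.3, variance trend) tested log2(normalized count + 1) of genes with a mean of at least 10, with Benjamini-Hochberg adjustment over all genes tested. The untreated groups, the sorted groups of the injury experiment, its whole DG and all its 17 libraries were 4 fits. All 4 sorted groups shared 1 spread. edgeR 4.0.16 (quasi-likelihood, TMM), DESeq2 1.42.0, pseudocounts of 0.5 and 10, no low-value filter, CLEAR genes only, no trend, no fold rule, 1 total per library, the mouse as a block, leaving out 1 mouse at a time, only 1 cell type's libraries, and 2 settings of technical replicates were alternatives. The limma, edgeR and DESeq2 fits were tested on simulated counts, with 1 comparison for each of the 4 fits, and the other steps were not. The main fits held no term for the mouse. Among the fits, only the alternative with the mouse as a block paired NSCs and IPCs of 1 animal. Their deviations correlated at 0.11 to 0.19 in untreated and 0.07 to 0.12 in injury mice.

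The members and lists were chosen with earlier results of these data known. Named genes are the 9 members, up to 3 called genes per direction and comparison with the highest mean from the 6 lists, and the 3 genes most like each member. Coordinates are GENCODE M21 on GRCm38. The study's methods name GRCm38 and GENCODE M14, and the submitters' notes name GRCh38.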

Additional observations from a re-analysis of the deposited data

Results flagged for a closer look

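Slc31a1 stood out because NSCs and IPCs of the same mouse differed in opposite directions in the 2 experiments. In the 3 untreated mice NSCs were higher by a mean of 1.103 on the log2 scale (1.00 to 1.23), and in the 5 mice of the injury experiment with both populations the mean was -0.29 (-0.60 to -0.03). The difference between the experiments was not tested.

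Tfrc stood out because all 3 TBI NSC libraries lay below both sham NSC libraries (-0.61 on the log2 scale), while all 3 TBI whole DG libraries lay above the 3 sham whole DG libraries (0.57). Neither difference passed the test, and the difference between NSCs and whole DG was not tested.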

How the results depend on the processing

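Leaving out each mouse gave 4 to 7 members called in untreated NSCs over whole DG (7 with all mice), 4 to 5 in untreated IPCs over whole DG (4), 2 to 3 in untreated NSCs over IPCs (3), 4 to 5 in NSCs over whole DG (4) and 4 to 6 in IPCs over whole DG (4) of the injury experiment, and 0 elsewhere. In untreated NSCs over whole DG, edgeR and rescaling to 1 total each called 4 members. In untreated NSCs over IPCs, the replicate block and the first technical replicate alone each called 0. In NSCs over IPCs of the injury experiment, DESeq2 called 1, Trf, and the replicate block called 0. Over all genes, DESeq2 called 1141 between untreated NSCs and IPCs, against 288 in limma, 183 with genes of any mean above 0 and 188 without the trend, and 145 to 542 without 1 mouse. Keeping only genes with CLEAR values in every library gave 2510, 1670 and 135 genes in untreated NSCs over whole DG, IPCs over whole DG and NSCs over IPCs, and 4957 and 4586 in NSCs and IPCs over whole DG of the injury experiment. In whole DG of the injury experiment all 49922 genes held a CLEAR value, so there the filter acted through the sorted cells alone. Where limma called 0 genes, dropping the trend called 11 in NSCs over IPCs, 5 in TBI over sham NSCs, 6 in IPCs and 5 in the interaction, with 0 members among them. Genes of any mean above 0 gave 13 calls in TBI over sham NSCs and 2 in whole DG, and CLEAR genes only gave 2 in whole DG. Without mouse 1, 5 genes were called in TBI over sham IPCs, and without mouse 2 or 6, 1 gene in NSCs. Of 404 alternative values of called members, 358 kept their call, 46 lost it and 0 turned round. Of 1135 values of members not called, 27 gained a call and 55 turned round.

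The turned values, all of members not called, were as follows. In untreated NSCs over IPCs, Slc39a14 was 0.19 with a pseudocount of 0.5, Trf -0.31 with the first technical replicate alone, and ranges without 1 mouse were -0.59 to 1.07 for Trf, -0.96 to 0.17 for Slc11a2 and -2.39 to 2.29 for Slc39a14. In NSCs over IPCs of the injury experiment, the replicate block gave -0.0060 for Tfrc and 0.0704 for Mt1, and ranges were -0.39 to 0.80 for Slc40a1, -0.12 to 0.31 for Tfrc, -0.36 to 0.57 for Slc39a14, -0.0987 to 0.0704 for Mt1 and -0.0281 to 0.22 for Mt2. In TBI over sham NSCs, Slc40a1 was -0.63 in edgeR and -0.64 in DESeq2, with ranges of -1.48 to 1.67 for Slc40a1, -0.62 to 0.94 for Slc31a1 and -0.25 to 0.67 for Slc11a2. In TBI over sham IPCs, ranges were -0.59 to 0.22 for Slc40a1, -0.18 to 0.38 for Slc31a1, -0.13 to 0.77 for Trf and -0.32 to 1.96 for Slc11a2. In the interaction, edgeR and DESeq2 gave -0.49 and -0.50 for Slc40a1, -0.0856 and -0.0871 for Slc31a1, and 0.0475 and 0.0542 for Slc11a2, and the replicate block gave -0.0782 for Slc31a1 and 0.53 for Slc11a2. Ranges there were -0.89 to 1.49 for Slc40a1, -0.44 to 0.56 for Slc31a1, -0.84 to 0.0131 for Tfrc, -0.29 to 0.0737 for Fth1, -1.66 to 0.53 for Slc11a2 and -0.84 to 1.02 for Slc39a14. In TBI over sham whole DG, rescaling gave -0.0023 for Fth1 and -0.0168 for Slc11a2, with ranges of -0.0665 to 0.0857 for Fth1 and -0.0314 to 0.0667 for Slc11a2. Fth1 in IPCs over whole DG of the injury experiment was -0.0046 in DESeq2. The cause was not tested.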
